A study of Arabidopsis thaliana with 9 samples.

Results

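The iron-deficiency signalling regulators described here are 5 of the 13350 genes of Arabidopsis thaliana that could be named on a 1-colour expression array, and 6 of its 22746 probe sets measure them. They are AT1G47400, PYE, BHLH101, AT1G18910 and AT1G74770, and they were picked by their names in the platform annotation, with the differences between the genotypes on these same arrays already known. AT1G74770 has 2 probe sets and each of the other genes has 1. The arrays held RNA of whole germinating seeds, which had spent 3 dark days at 4 °C on wet filter paper followed by 22 h of light at 22 °C. Wild-type Col-0 seeds, ARF10 seeds and mARF10 seeds had 3 arrays each, 9 in all, and each sample held 3 seed lots. ARF10 seeds carried AUXIN RESPONSE FACTOR10 fused to the green fluorescent protein (ARF10:ARF10-GFP), with 3 kb of the gene's own upstream region and 2.3 kb of coding region, and an intact target site for microRNA160. mARF10 seeds carried the same construct with 4 mutations in that site (ARF10:mARF10-GFP). How many transgenic lines stand behind each genotype is not given in the sources used here, and the annotation names no probe set for ARF10, so the transgene's transcript was not analysed here.

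Plants short of iron switch on uptake and redistribution of the metal through a cascade of basic helix-loop-helix (bHLH) transcription factors. Small IRON MAN peptides promote this response. PYE (POPEYE) is a bHLH factor that rises under iron deficiency and represses genes of iron transport and storage, and BHLH101 belongs to a group of bHLH factors that partner FIT, the activator of iron uptake in the root. BTSL1 and BTSL2 are ubiquitin ligases of the BRUTUS family that restrain the response by marking its activators for degradation. A seed lives at first on iron stored in the vacuoles of the embryo and takes up iron from outside once the root has emerged.

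Values are the deposited log2 signals, 1 per probe set and array, and their error is the SD over a genotype's 3 arrays. A difference between genotypes is a log2 difference from limma, fitted over the 15922 probe sets whose mean over the 9 arrays was at or above a log2 signal of 5.72, with its standard error (SE). The SE pools the spread of all 3 genotypes, so a probe set has the same SE in each comparison. Signals of different probe sets are not on a common scale, so levels are compared between genotypes and not between genes. Over the tested probe sets the arrays correlated at 0.967 to 0.997. On the principal component with the most variance, Col-0 replicate 2 stood apart at 41.3 against -17.3 to 5.87 for the other arrays, so the differences of the 5 regulators from Col-0 are given with and without it. Of 15 seed storage markers, 4 were named on the array, and OLEO3, an oleosin of the oil body, had mean log2 signals of 9.31 to 10.40 in the 3 genotypes.

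AT1G47400, PYE and BHLH101 had the highest mean signal in mARF10 seeds and the lowest in ARF10 seeds, with Col-0 between. The 2 ubiquitin ligase genes lay low on the array and their arrays overlapped between all genotypes. AT1G18910 and the brighter probe set of AT1G74770 had the same order of means with smaller differences, and the other probe set of AT1G74770 did not. The differences between genotypes chose these genes, so they are given as a description. The calls that the fit over all probe sets made for them are counted further on and support nothing. In whole seeds, fewer cells of a type and less RNA per cell cannot be told apart.

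**Figure D1:**
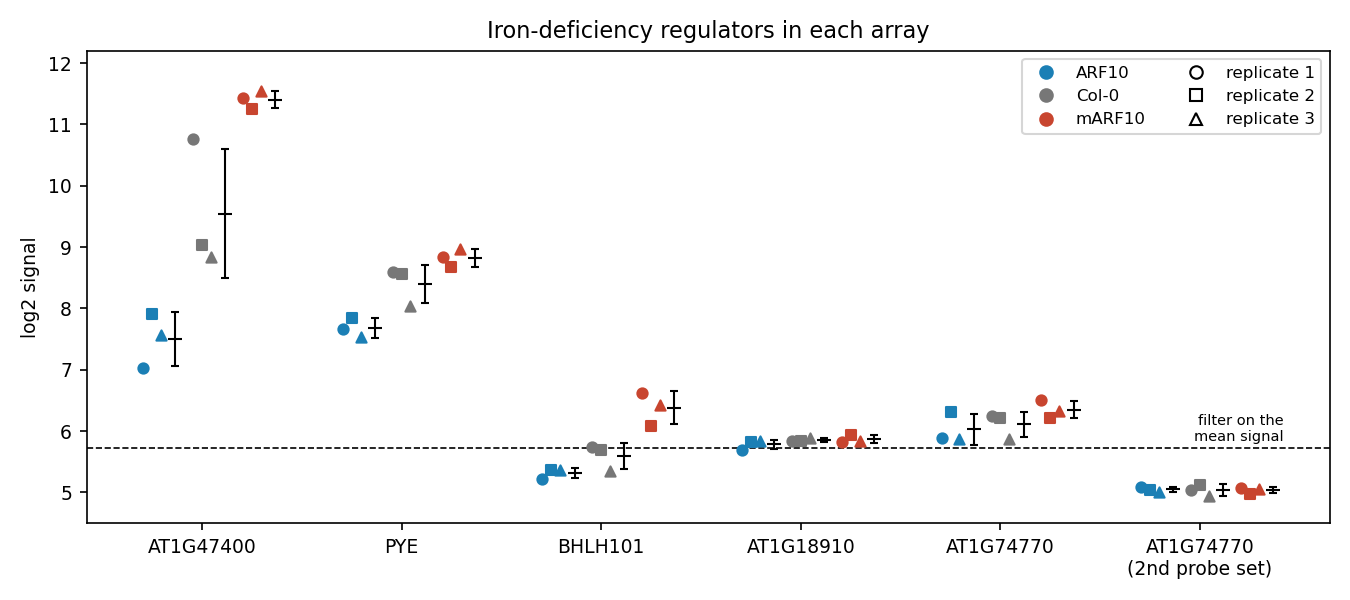
Log2 signal of the 6 probe sets on each array (vertical axis), grouped by gene, with colours for genotype, marker shapes for replicate number, and black bars for mean ± SD (n = 3). The dashed line is the filter on the mean signal at 5.72, and AT1G47400 spans 7.03 in ARF10 replicate 1 to 11.54 in mARF10 replicate 3.

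AT1G47400 encodes IRON MAN1, a short peptide that promotes the iron-deficiency response. Its log2 signal was 11.43, 11.25 and 11.54 on mARF10 replicates 1, 2 and 3. On the Col-0 arrays it was 10.76, 9.03 and 8.84, and on the ARF10 arrays 7.03, 7.91 and 7.56. Every mARF10 array was above every Col-0 array, and every Col-0 array was above every ARF10 array. The means were 11.41 ± 0.14 in mARF10, 9.55 ± 1.06 in Col-0 and 7.50 ± 0.45 in ARF10 (SD, n = 3). The mARF10 arrays lay between percentiles 94.4 and 95.5 of all probe sets on their array, and the ARF10 arrays between percentiles 49.2 and 61.8.

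The difference in AT1G47400 between mARF10 and ARF10 seeds was 3.90 (SE 0.45), which is 15.0-fold. It was the highest of all named genes tested and the 7th highest of all probe sets tested. The lowest mARF10 array was 3.34 above the highest ARF10 array. From Col-0, mARF10 differed by 1.86 (SE 0.45) and ARF10 by -2.04 (SE 0.45). With only the 2 compared genotypes in the fit, the SE was 0.20 between mARF10 and ARF10. It was 0.48 between mARF10 and Col-0 and 0.52 between ARF10 and Col-0. Col-0 lay about midway, but its arrays were spread widely: the SD of 1.06 exceeded that of 99.4% of tested probe sets in Col-0. The spread came from Col-0 replicate 1, at 10.76, which was 0.49 below the lowest mARF10 array. Without Col-0 replicate 1 the difference between mARF10 and Col-0 was 2.47, and without Col-0 replicate 2 it was 1.60. ARF10 differed from Col-0 by -1.44 without Col-0 replicate 1 and by -2.30 without Col-0 replicate 2. The neighbouring gene AT1G47395, which encodes the related peptide IRON MAN2, is named for no probe set here. Whether its transcript contributes to the AT1G47400 signal was not tested, as probe sequences were not used here.

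PYE followed the same order with smaller steps. Its log2 signal was 8.84, 8.67 and 8.97 on the mARF10 arrays. It was 8.60, 8.56 and 8.03 on the Col-0 arrays and 7.67, 7.85 and 7.53 on the ARF10 arrays. No array of one genotype reached into another, although the highest Col-0 array was only 0.08 below the lowest mARF10 array. Means were 8.83 ± 0.15 in mARF10, 8.40 ± 0.32 in Col-0 and 7.68 ± 0.16 in ARF10 (SD, n = 3).

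Between mARF10 and ARF10 the PYE difference was 1.14 (SE 0.16), or 2.21-fold. ARF10 was below Col-0 by more (-0.71, SE 0.16) than mARF10 was above it (0.43, SE 0.16). The mARF10 difference from Col-0 was little larger than the SD of the Col-0 arrays (0.32) and moved from 0.43 to 0.25 without Col-0 replicate 3, the Col-0 array with the lowest PYE signal. Without Col-0 replicate 2 the differences from Col-0 were 0.51 for mARF10 and -0.63 for ARF10. Over all tested probe sets, 0.308% had every Col-0 array above every ARF10 array and every mARF10 array above every Col-0 array, which is 49 probe sets, and those of AT1G47400 and PYE were among them. As this order chose the genes, nothing is read from that share.

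BHLH101, which encodes one of the bHLH partners of FIT, was a dim probe set. On the mARF10 arrays its log2 signal was 6.62, 6.09 and 6.43. On the Col-0 arrays it was 5.74, 5.69 and 5.35, and on the ARF10 arrays 5.23, 5.36 and 5.36. All mARF10 arrays were above all others, while Col-0 and ARF10 arrays overlapped at their edge. The means were 6.38 ± 0.27 in mARF10, 5.59 ± 0.21 in Col-0 and 5.32 ± 0.08 in ARF10 (SD, n = 3).

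BHLH101 differed between mARF10 and ARF10 by 1.06 (SE 0.15), or 2.09-fold. The step from Col-0 up to mARF10 (0.79, SE 0.15) was larger than that from ARF10 up to Col-0 (0.27), for which the SE was 0.15. Without Col-0 replicate 2, mARF10 differed from Col-0 by 0.84 and ARF10 by -0.23. This is the reverse of PYE, where the step from ARF10 to Col-0 was the larger one; the difference between the 2 genes was not tested. The mean of BHLH101 over the 9 arrays was 5.76, just above the filter at 5.72, and it passed only through the mARF10 arrays, since both other genotype means lay below the filter. Whether the signal in Col-0 and ARF10 seeds stood above background was not tested, so how large this difference was remains uncertain.

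AT1G18910 encodes BTSL2, a ubiquitin ligase of the BRUTUS family. Its log2 signal was 5.83, 5.94 and 5.84 on the mARF10 arrays, 5.84, 5.83 and 5.89 on the Col-0 arrays and 5.70, 5.82 and 5.83 on the ARF10 arrays. All 9 arrays lay within a narrow band near the filter, and all genotypes overlapped. The differences were 0.08 (SE 0.07) for mARF10 minus ARF10, 0.02 (SE 0.07) for mARF10 minus Col-0 and -0.07 (SE 0.07) for ARF10 minus Col-0. Without Col-0 replicate 2 those from Col-0 were 0.0047 for mARF10 and -0.08 for ARF10. A change in a transcript this close to the low end of the array would be hard to see, so these values do not show that its level was equal.

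AT1G74770 encodes BTSL1, the closest relative of BTSL2. Its brighter probe set had log2 signals of 6.50, 6.22 and 6.32 on the mARF10 arrays, 6.25, 6.21 and 5.88 on the Col-0 arrays and 5.89, 6.32 and 5.87 on the ARF10 arrays. The mARF10 mean of 6.35 ± 0.14 was the highest, but ARF10 replicate 2 reached into the mARF10 range. The difference between mARF10 and ARF10 was 0.32 (SE 0.15), and without ARF10 replicate 2 it was 0.47. From Col-0, mARF10 differed by 0.24 (SE 0.15) and ARF10 by -0.08 (SE 0.15), and without Col-0 replicate 2 by 0.29 and -0.03. The other probe set of AT1G74770 lay at 4.94 to 5.13 on all arrays, below the filter, with genotype means of 5.04, 5.04 and 5.05. The 2 probe sets correlated at r = 0.38 over the 9 arrays, so they give no common account of this gene.

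**Figure D2:**
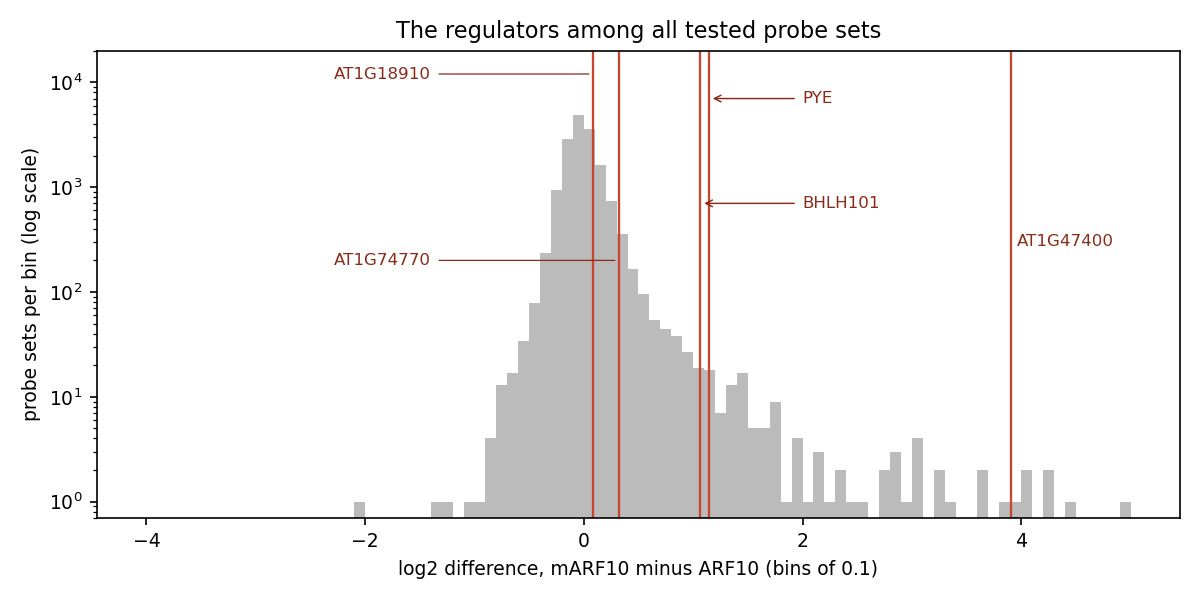
Number of probe sets (log scale, vertical axis) by log2 difference between mARF10 and ARF10 seeds in bins of 0.1 (horizontal axis), over the 15922 tested probe sets, with red lines at the 5 regulators. AT1G47400 lies far out at 3.90, and PYE and BHLH101 lie at 1.14 and 1.06. AT1G74770 lies at 0.32, the 811th highest difference, and AT1G18910 (0.08) lies in the bulk.

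In the limma fit over all probe sets, 3 of the 5 genes (AT1G47400, PYE and BHLH101) were called higher in mARF10 than in ARF10 at an adjusted p of 0.05 or less, where 0.314% of all tested probe sets were called higher. This contrast chose the genes, so the count is not a result about them. It also depended on single arrays: AT1G47400, PYE and BHLH101 were no longer called without any 1 ARF10 array, mARF10 replicate 1 or mARF10 replicate 3, and PYE also not without mARF10 replicate 2. The limma adjusted p was then 0.0676 to 0.106 for AT1G47400, 0.0638 to 0.163 for PYE and 0.118 to 0.156 for BHLH101. Their mARF10 and ARF10 arrays did not overlap, which was so in the higher direction for 9.58% of tested probe sets. Between mARF10 and Col-0 limma called no probe set (0%), with 10.7% under an unadjusted p of 0.05; the arrays of the same 3 genes were apart, against 5.26% in the higher direction over all. Under alternatives, limma called AT1G47400 there without Col-0 replicate 1 (adjusted p = 0.0345) and with array weights (adjusted p = 0.0418), and BHLH101 with array weights (adjusted p = 0.0204). Col-0 replicate 1 was the Col-0 array nearest to mARF10 for AT1G47400, so leaving it out widens that difference. As the genes were chosen with these differences known, these calls support nothing either. Between ARF10 and Col-0 limma called none either (0%), with 4.64% under an unadjusted p of 0.05. Arrays of AT1G47400 and PYE were apart there, against 3.61% in the lower direction over all. The 3 comparisons share their arrays, so they do not count as separate evidence.

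AT1G47400, PYE and BHLH101 varied together from array to array. Over the 9 arrays Pearson's r was 0.95 between AT1G47400 and PYE, 0.91 between AT1G47400 and BHLH101 and 0.89 between PYE and BHLH101. Much of this is the difference between genotypes that chose them. Deviations from the genotype means correlated at 0.59, 0.51 and 0.70 in the same order. Col-0 replicate 3 was the lowest Col-0 array for all 3 genes and for AT1G74770, and mARF10 replicate 2 was the lowest mARF10 array for the same 4 genes. Among the ARF10 arrays the genes differed: replicate 1 was lowest for AT1G47400 and BHLH101, and replicate 3 for PYE and AT1G74770. AT1G74770 followed PYE at r = 0.77 over all arrays and 0.82 in deviations from the genotype means. AT1G18910 followed the rest less closely, at r = 0.55 with AT1G47400, 0.42 with PYE, 0.32 with BHLH101 and 0.19 with AT1G74770 over all arrays. Its deviations from the genotype means correlated at 0.03, -0.46, -0.49 and -0.19 in the same order. All genes of an array share its RNA and its scaling, so these values are descriptions. Without Col-0 replicate 2 the r between AT1G47400 and PYE was 0.98.

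**Figure D3:**
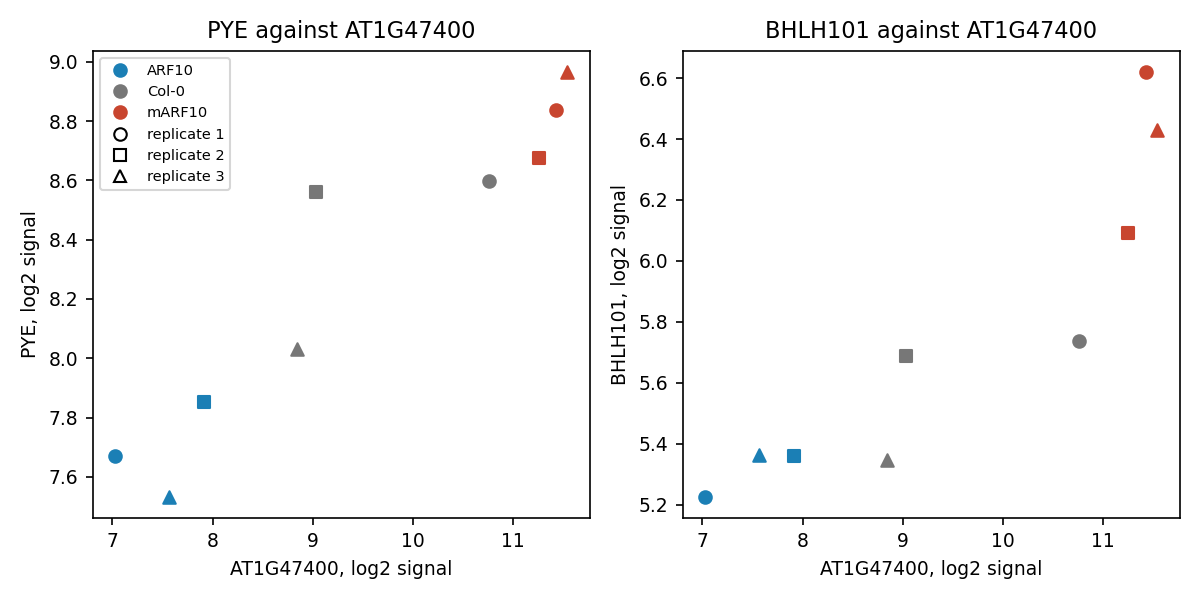
Log2 signal of PYE (left, vertical axis) and BHLH101 (right, vertical axis) against that of AT1G47400 (horizontal axis) on the 9 arrays, with colours for genotype and marker shapes for replicate number. PYE climbs across all 3 genotypes (r = 0.95), whereas BHLH101 stays between 5.23 and 5.74 in ARF10 and Col-0 and reaches 6.09 to 6.62 in mARF10.

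The rest of the pathway was read through 54 further genes in 4 lists, of which the annotation named 13 and 9 were tested. In mARF10 against ARF10 seeds, 1 of these 9 was called higher and 0 lower by limma. Of all tested probe sets, 0.314% were called higher and 0.408% in either direction. The lists were chosen with earlier results of these data known, so nothing is read from this count. The median difference of the 9 genes was 0.11, against -0.02 over all tested probe sets. Of the 14 genes of iron transport and nicotianamine synthesis none was named, and IRT1, FRO2 and FIT, the root uptake system's transporter, reductase and activator, were not named either. These genes were not analysed here.

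The gene called was AT3G58060 (MTP8), which encodes a vacuolar transporter of manganese and iron and was the 1 gene tested of the list on metal stores and ferritin. Its log2 signal was 9.60, 9.71 and 9.52 on the mARF10 arrays, 8.60, 9.02 and 8.84 on the Col-0 arrays and 8.74, 8.95 and 8.83 on the ARF10 arrays. All mARF10 arrays were above all others, and Col-0 and ARF10 arrays overlapped. It rose by 0.77 (SE 0.11) from ARF10 to mARF10, with a limma adjusted p of 0.0317. That call was lost without any 1 of the 6 mARF10 and ARF10 arrays and without Col-0 replicate 3, with limma adjusted p of 0.056 to 0.176, while the difference was then 0.72 to 0.83. Against Col-0 the difference was 0.79 (SE 0.11) with a limma adjusted p of 0.156. There it passed without Col-0 replicate 2, where limma gave an adjusted p of 0.0239, and with array weights, where it gave 0.0126. ARF10 differed from Col-0 by 0.02 (SE 0.11), and this sign turned without Col-0 replicate 1 (-0.09) and without ARF10 replicate 2 (-0.04).

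Upstream of PYE and BHLH101 act bHLH34, bHLH104, bHLH115 and ILR3, related bHLH factors that activate both genes under iron deficiency, together with their partner bHLH121. All 5 were well measured, at mean log2 signals of 8.32 to 10.63 over the 9 arrays, and none was called in any comparison by limma. From ARF10 to mARF10 they differed by 0.11 (SE 0.10) for bHLH34, 0.11 (SE 0.09) for bHLH104, 0.19 (SE 0.14) for bHLH115, -0.04 (SE 0.06) for ILR3 and 0.27 (SE 0.12) for bHLH121. Arrays of these genotypes overlapped in all 5. The limma adjusted p for bHLH121, the lowest among them, was 0.456.

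NAI1, a bHLH factor known from the endoplasmic reticulum bodies of seedlings and, with its relatives, for opposing FIT under jasmonate, had log2 signals of 9.53, 9.49 and 9.50 on the mARF10 arrays. It lay at 9.35, 8.74 and 9.15 on the Col-0 arrays and 9.38, 9.23 and 9.21 on the ARF10 arrays. The mARF10 arrays were above all others, with a difference from ARF10 of 0.23 (SE 0.14) that did not pass (limma adjusted p = 0.577). Without Col-0 replicate 2, the lowest Col-0 array, its difference from Col-0 went from 0.43 to 0.26.

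Of the genes that act at the root surface, 3 of 10 were named and 2 tested, and none was called by limma. AT3G12900 (S8H), which encodes an enzyme that makes the iron-mobilising coumarin fraxetin, differed by -0.14 (SE 0.08) between mARF10 and ARF10, with a limma adjusted p of 0.538. BGLU42, a beta-glucosidase that takes part in coumarin release, differed by -0.18 (SE 0.12), with a limma adjusted p of 0.621. AT3G13610 (F6'H1), an earlier enzyme of the same coumarin pathway, was left out by the filter, with genotype means of 5.48 to 5.56. Both tested differences were negative, against a median of -0.02 over all tested probe sets. The mARF10 arrays of AT3G12900 (6.06 to 6.08) lay below all ARF10 arrays (6.19 to 6.23) and all Col-0 arrays (6.09 to 6.34). For BGLU42 the mARF10 arrays (9.22 to 9.25) lay below all ARF10 arrays (9.34 to 9.56) and overlapped those of Col-0. The share of all probe sets apart in the lower direction was not counted. How these differences relate to those of the regulators was not tested.

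**Figure D4:**
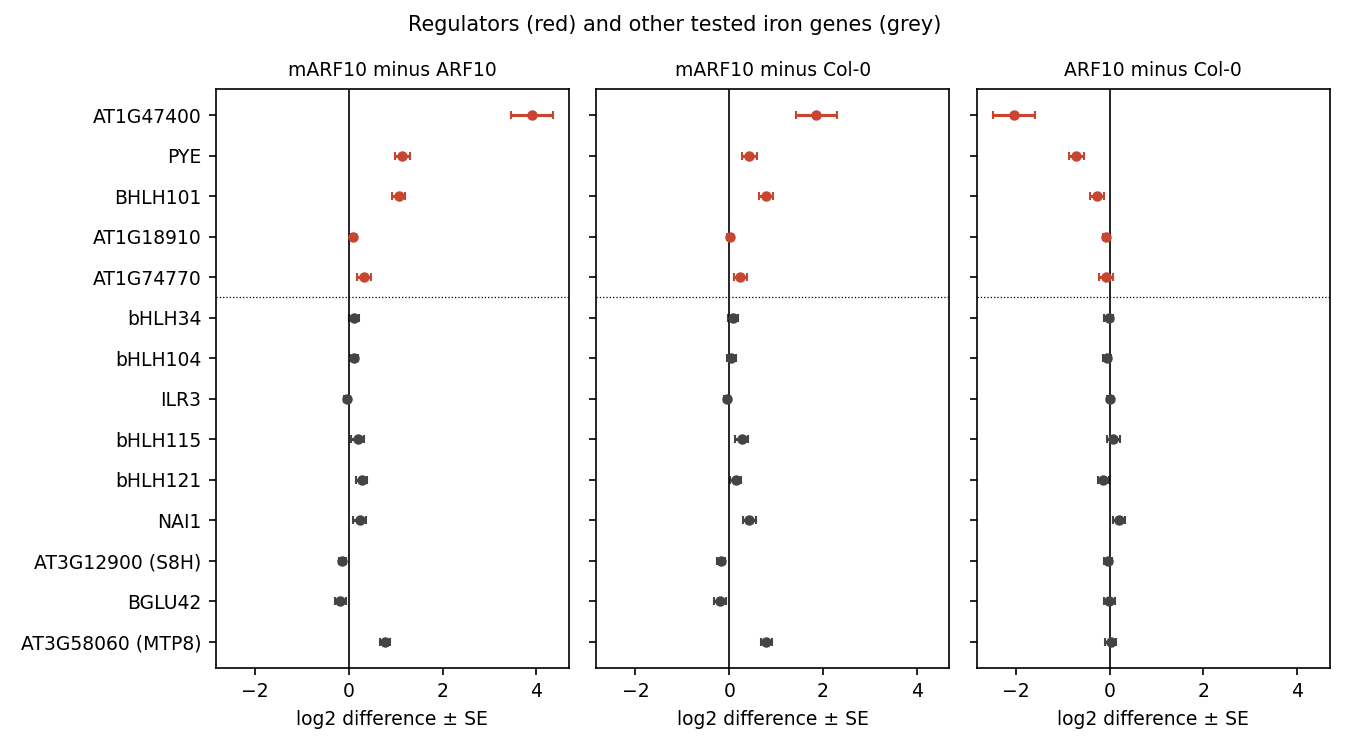
Log2 difference ± SE (limma, horizontal axis) of the 5 regulators (red) and of the 9 other tested iron genes (grey) in the 3 comparisons. AT1G47400, PYE and BHLH101 lie right of 0 in both mARF10 comparisons, as does AT3G58060 (0.77 and 0.79), while the upstream bHLH genes lie between -0.04 and 0.27 in mARF10 minus ARF10.

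Among the 8950 named and tested probe sets of other genes, the one most like PYE over the 9 arrays was AT5G05250, with Pearson's r = 0.98 and Spearman's rho = 0.98. Its genotype means were 9.59 in ARF10, 10.22 in Col-0 and 10.72 in mARF10, and its deviations from these means correlated with those of PYE at 0.91. It was followed by AT1G61770 (r = 0.96, rho = 0.92) and AT1G13000 (r = 0.95, rho = 0.93), whose differences between mARF10 and ARF10 were 0.24 and 0.34. Most like AT1G47400 were AT1G04660 (r = 0.96, rho = 0.82), the plastid gene ndhI (r = 0.96, rho = 0.90) and AT2G34300 (r = 0.95, rho = 0.85). They differed between mARF10 and ARF10 by 0.98, 0.48 and 0.48, far less than the 3.90 of AT1G47400.

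Most like BHLH101 were CDI (r = 0.98, rho = 0.83), the glucosyltransferase gene UGT85A2 (r = 0.97, rho = 0.87) and OLEO3 (r = 0.97, rho = 0.82). For AT1G18910 they were AT2G13840 (r = 0.98, rho = 0.76), AT2G20230 (r = 0.91, rho = 0.90) and AT1G13130 (r = 0.89, rho = 0.65), with differences between mARF10 and ARF10 of 0.07 to 0.10 only. For AT1G74770 they were D2HGDH, a mitochondrial dehydrogenase gene (r = 0.96, rho = 0.95), AT1G10660 (r = 0.92, rho = 0.88) and AT1G73390 (r = 0.89, rho = 0.86). These are the extremes of many comparisons over 9 arrays that cluster by genotype, and they describe likeness only.

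Seed storage markers had the same order of genotype means as AT1G47400 and PYE. The Col-0 and mARF10 arrays overlapped in the mean of the markers and in PAP85, CUPIN2 and CRU2. For OLEO3 no genotype overlapped another, as for AT1G47400 and PYE. Its arrays lay at 9.24 to 9.37 in ARF10, 9.51 to 9.71 in Col-0 and 10.11 to 10.58 in mARF10. The mean log2 signal of the 4 named markers was 6.61 to 7.20 on the ARF10 arrays, 7.63 to 8.80 on the Col-0 arrays and 8.44 to 9.35 on the mARF10 arrays. Of the 3 that were tested, OLEO3 was called between mARF10 and ARF10 (limma adjusted p = 0.0120) and all 3 had positive differences. The differences were largest for PAP85 (3.34) and CUPIN2 (3.04), which were not called (limma adjusted p = 0.0937 and 0.0582). Among the Col-0 arrays the order of the storage mean was turned. Replicate 1, the highest for AT1G47400 at 10.76, had the lowest storage mean at 7.63. Replicate 3, the lowest for AT1G47400 at 8.84, had the highest at 8.80. Not every marker had this order. PAP85 and CUPIN2 were lowest on Col-0 replicate 1 (8.14 and 7.63). OLEO3 was highest there, at 9.71 against 9.51 and 9.59 on replicates 2 and 3. CRU2, left out by the filter, was lowest on replicate 2. Among the ARF10 arrays replicate 2 was highest for both AT1G47400 and the storage mean (7.20). Among the mARF10 arrays replicate 2 was lowest for both (8.44 for the storage mean). For root hair markers, 2 of 6 were named, and their mean was 6.13 to 6.32 on all arrays. The 1 of 8 seed coat and endosperm markers named, BAN, lay at 6.33 to 6.68. Greening markers (4 of 8 named) averaged 8.86 on Col-0 replicate 2 and 9.82 to 10.62 on the other arrays. The part of storage or greening tissue in the differences of the regulators was not tested.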

How the data were processed

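The deposited table holds a log2 signal for each probe set on each array. Base 2 was inferred, as values run from 3.70 to 14.78; how the authors summarised and normalized them is not given in the sources used here. Array medians of 7.06 to 7.11 show a common scale, and nothing further was normalized. After 64 control probe sets were left out, 15922 of 22746 had a mean at or above the 30th percentile (5.72). limma 3.58.1 in R 4.3.3 fitted 1 mean per genotype over the 9 arrays, with eBayes and Benjamini-Hochberg adjustment over the tested probe sets, 2-sided, threshold 0.05, and was tested on simulated data. The number of arrays limits the precision. Probe sets were named by the platform annotation (13513 with 1 gene, 503 with several, 8730 unnamed here) through the gene table of TAIR10.1; where a gene had several, that with the highest mean was used. The regulators and lists were chosen with earlier results of these data known. Named are the 5 regulators, per list every called gene and the 3 with the lowest p between mARF10 and ARF10 (the upstream bHLH genes are all named), and the 3 genes most like each regulator by Pearson's r. Same-numbered arrays deviated together between ARF10 and Col-0 (r = 0.19 to 0.49 over tested probe sets), but not in every pair of the other comparisons (-0.17 to 0.48). Per the labels the replicates are independent biological ones. Alternatives were 2 other filters, a floor, quantile normalization, centring on array medians, other eBayes settings, array weights (gene by gene), 2 genotypes only, a replicate block and leaving out each array.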

Additional observations from a re-analysis of the deposited data

How the results depend on the processing

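Between mARF10 and ARF10 the differences of AT1G47400 (3.67 to 4.11), PYE (1.07 to 1.25) and BHLH101 (0.94 to 1.21) had the same sign under all alternatives in which they were tested. The limma call was made under 13 of 18 alternatives for AT1G47400 (adjusted p up to 0.106), 12 of 18 for PYE (up to 0.163) and 12 of 17 for BHLH101 (up to 0.156), and every lost call came with an ARF10 or mARF10 array left out. This contrast chose these genes, so the counts describe only how the calls depended on the processing and support nothing. BHLH101 passed the main filter only through its mARF10 arrays. BHLH101, AT1G18910 and AT1G74770 were left out by a filter at the 50th percentile. Against Col-0, PYE in mARF10 ranged from 0.25 to 0.70. The count of called probe sets between mARF10 and ARF10, 65 in the fit over all arrays, was 784 with array weights, 397 with these 2 genotypes only and 1 to 267 with 1 array left out, which also leaves fewer arrays. Between mARF10 and Col-0 the 0 calls became 82 with array weights and 0 to 14 with 1 array left out. Between ARF10 and Col-0 the 0 calls became 1 with quantile normalization, 1 with trended and robust eBayes, 1 with array weights and 0 to 19 with 1 array left out. The cause of these changes was not tested. Of the pathway genes, 1 was called between mARF10 and ARF10, and 0 to 1 with 1 array left out. Against Col-0, 0 were called in mARF10, 1 with array weights and 0 to 1 with 1 array left out. The difference of MTP8 between ARF10 and Col-0 (0.0192) ran from -0.0927 to 0.1201 with 1 array left out and was below 0 without Col-0 replicate 1 and without ARF10 replicate 2. In a fit with a replicate block, which pairs same-numbered samples, 70 probe sets were called between mARF10 and ARF10 and 0 in either comparison with Col-0, and no call on the pathway genes changed. Whether a probe set stood above background could not be assessed from these values, which limits BHLH101, AT1G18910 and AT1G74770.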

Other observations

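Beyond the lists of iron genes, 5 further metal genes were picked from the annotation after the values above were seen. None was called between mARF10 and ARF10 seeds by limma, and the arrays of these genotypes overlapped in all 5. MT1C, a metallothionein gene, had the largest difference, at 11.10 ± 0.46 in mARF10 and 10.53 ± 0.12 in ARF10 (SD, n = 3), which is 0.57 (SE 0.24, limma adjusted p = 0.429). The zinc transporter family genes ZIP6 and ZIP9 differed by -0.12 (SE 0.12) and 0.04 (SE 0.08), and bZIP19, which encodes a factor of the zinc-deficiency response, by 0.04 (SE 0.07). Mfl1, a mitoferrin-like gene of the plastid, differed by -0.11 (SE 0.09).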
